A study of Mus musculus with 23 samples.

Results

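The genes described here were 10 T cell identity and signalling genes chosen by name: the CD3 chains Cd3d, Cd3e and Cd3g, the zeta chain Cd247, the coreceptor genes Cd4, Cd8a and Cd8b1, the kinase gene Lck, the cytokine receptor gene Il7r and the T cell membrane protein gene Ms4a4b. They were followed through the probe sets annotated with 1 of these symbols and no other, which were 19 of 45101 on the array. Such probe sets were found for 9 of the 10 genes, out of 18193 genes with one on the array, and Lck was not analysed here. Cd8a had 5 of them, Cd247 had 4, Cd4, Il7r and Ms4a4b had 2 each, and the other genes had 1 each. Where a gene had several, the probe set with the highest mean over all arrays stands for it, and the others are given further on. The genes were chosen with earlier results of these data known.

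Gene expression was measured in RNA from right lungs, taken whole, in a mouse study of cystic fibrosis, the disease caused by loss of the chloride channel encoded by Cftr. CF mice had the genotype CF-/- and Control mice had the genotype CF+/+, in the C57BL/6 (B6) and BALB/c (BALB) strains and in both sexes. There were 3 arrays each of B6 female CF, B6 female Control, B6 male Control, BALB female CF, BALB female Control, BALB male CF and BALB male Control mice, and 2 arrays of B6 male CF mice, 23 in all. The labels give neither the mutant allele nor the age of the mice, and they do not say whether each array is a mouse of its own, so the p-values measure the spread between these arrays, which may be technical.

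T cells recognise antigen through a receptor whose variable alpha and beta chains cannot signal by themselves. Signals pass into the cell through the CD3 gamma, delta and epsilon chains and the zeta chain, and CD4 or CD8 binds the MHC molecule at the same time and brings the kinase Lck to the complex. In the lung the CD3 genes are transcribed mainly by T cells, and some of the other genes, Il7r and Ms4a4b among them, are less confined to T cells. Natural killer cells, for example, also make CD247, and some dendritic cells make CD8 alpha or CD4. In RNA of a whole lung, more T cells and more RNA per T cell cannot be told apart.

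All values are deposited signals taken to be on a log2 scale, on which a difference of 1 is a doubling. Levels of different probe sets are not compared. Array medians lay between 4.56 and 4.64. The surfactant gene Sftpc, which marks alveolar type 2 cells, was between 13.55 and 13.75 on every array. Cftr itself averaged 3.99 ± 0.38 in BALB CF lungs and 5.66 ± 0.18 in BALB Control lungs (SD, n = 6 each), a difference of -1.67 (SE 0.13, adjusted p = 6.44e-07). In B6 it averaged 4.06 ± 0.22 in CF lungs and 4.28 ± 0.19 in Control lungs (SD, n = 5 and 6), a difference of -0.22 (SE 0.13, adjusted p = 0.43). Cftr thus bore out the genotype labels in BALB and could not be used to check them in B6.

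BALB male Control array 3 stood apart from the other 22 arrays in genes of immature thymocytes, the T cell precursors of the thymus. Rag1, which cuts DNA during receptor gene rearrangement, was 6.85 on it and between 2.83 and 3.93 on the others. Dntt, which adds bases at the joined ends, was 5.30 against 3.52 to 4.22. Rag2 was 4.11 against 3.16 to 3.72, and Themis, which tunes receptor signals during selection, was 5.16 against 4.0 to 4.91. In all, 4 of the 7 thymocyte markers were higher there than on any other array, and Ptcra, Cd1d1 and Tcf12 were within the range of the others. The mean of the 7 markers, each less its own mean over all arrays, was 0.998 on this array. It lay between -0.13 and -0.02 on the BALB CF arrays, between -0.18 and -0.02 on the other 5 BALB Control arrays, and between -0.13 and 0.13 on the B6 arrays.

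**Figure D1:**
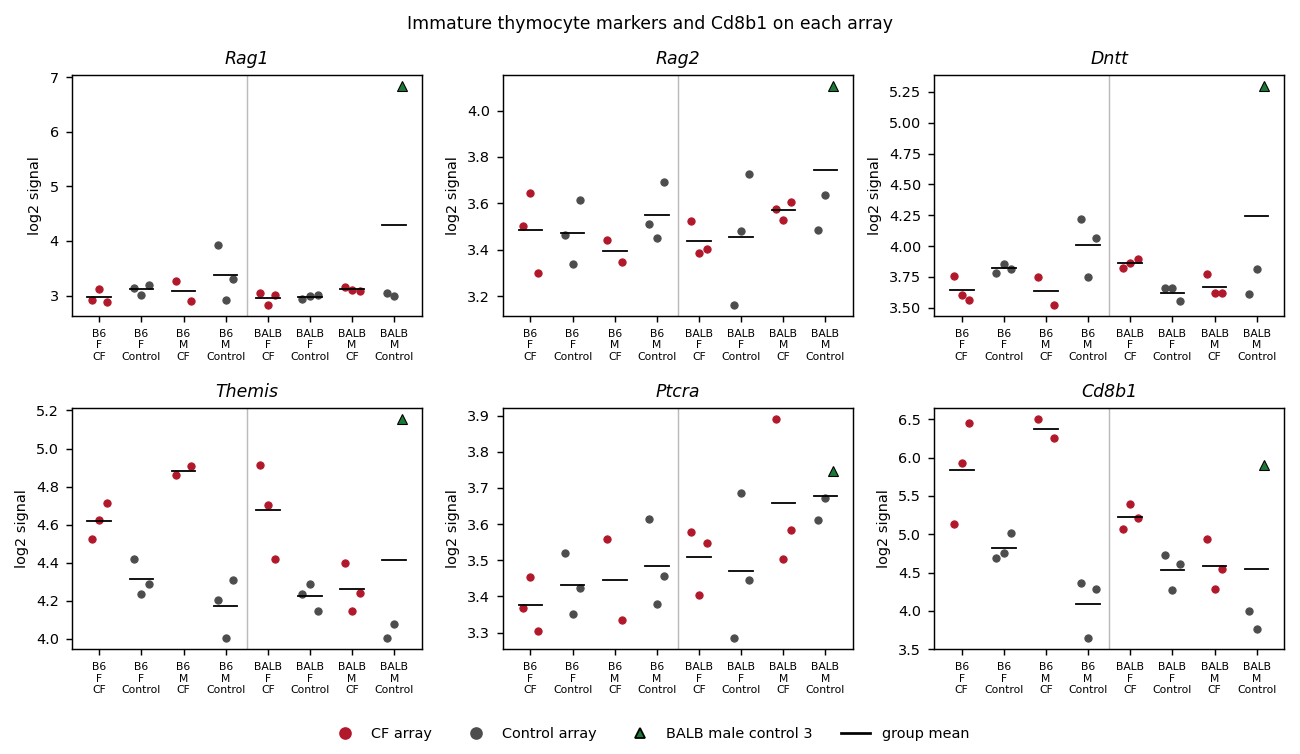
Log2 signal of 5 immature thymocyte markers and of Cd8b1 on each array, by strain, sex (F, M) and genotype. Points are arrays, horizontal lines are group means, and the triangle is BALB male Control array 3. That array is the highest of the 23 for Rag1, Rag2, Dntt and Themis, and not for Ptcra, and its Cd8b1 signal of 5.90 is far above that of the other BALB male Control arrays.

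The T cell genes were also higher on this array than on both other BALB male Control arrays, for 9 of 9 genes. Cd8b1, the CD8 beta chain, was 5.90 on array 3 and 3.99 and 3.76 on the other 2. Cd3g was 6.37 on array 3 and 4.76 and 4.64 on the other 2. Some markers of other white blood cells were also higher on array 3 than on these 2 arrays, and others were not. The B cell marker Ms4a1 was 5.75 against 3.85 and 4.15. The natural killer cell marker Gzma was 7.98 against 6.28 and 6.67, and the neutrophil marker S100a9 was 9.97 against 8.55 and 8.69. The B cell marker Pax5, at 3.86, lay between their 4.08 and 3.81. Of dendritic cell markers, Itgax was lower on array 3 (6.64 against 6.89 and 7.05) and Siglech was higher (4.69 against 4.35 and 4.43). Of macrophage and monocyte markers, Ccr2 was higher (5.42 against 4.67 and 4.98) and Siglecf was lower (4.44 against 4.53 and 4.79). Cd68, at 7.18, lay between their 7.03 and 7.58. Il7r (5.72) and Ms4a4b (6.89) on array 3 were below every BALB female Control array. Cd8a and Cd8b1 were higher on this array than on any of the other 11 BALB arrays, CF arrays included. The values of the 9 genes that use BALB Control lungs were therefore also computed without this array.

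The first question was whether T cell genes differ between CF and Control lungs of B6 mice. In B6, 8 of the 9 genes were higher in CF lungs at an adjusted p under 0.05, and all but Cd4 are among them. Over all probe sets tested the background was 2.72% higher and 1.99% lower. Since the members were chosen with earlier results of these data known, the count beside this background is a description only. The median difference of the 9 genes was 0.83, and that of all probe sets was -0.005. On 7 of the 9 genes every CF array was above every Control array, which was so for 1.30% of all probe sets, and Cd247 and Cd4 were the exceptions. The count was 7 or 8 when any 1 array was left out.

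**Figure D2:**
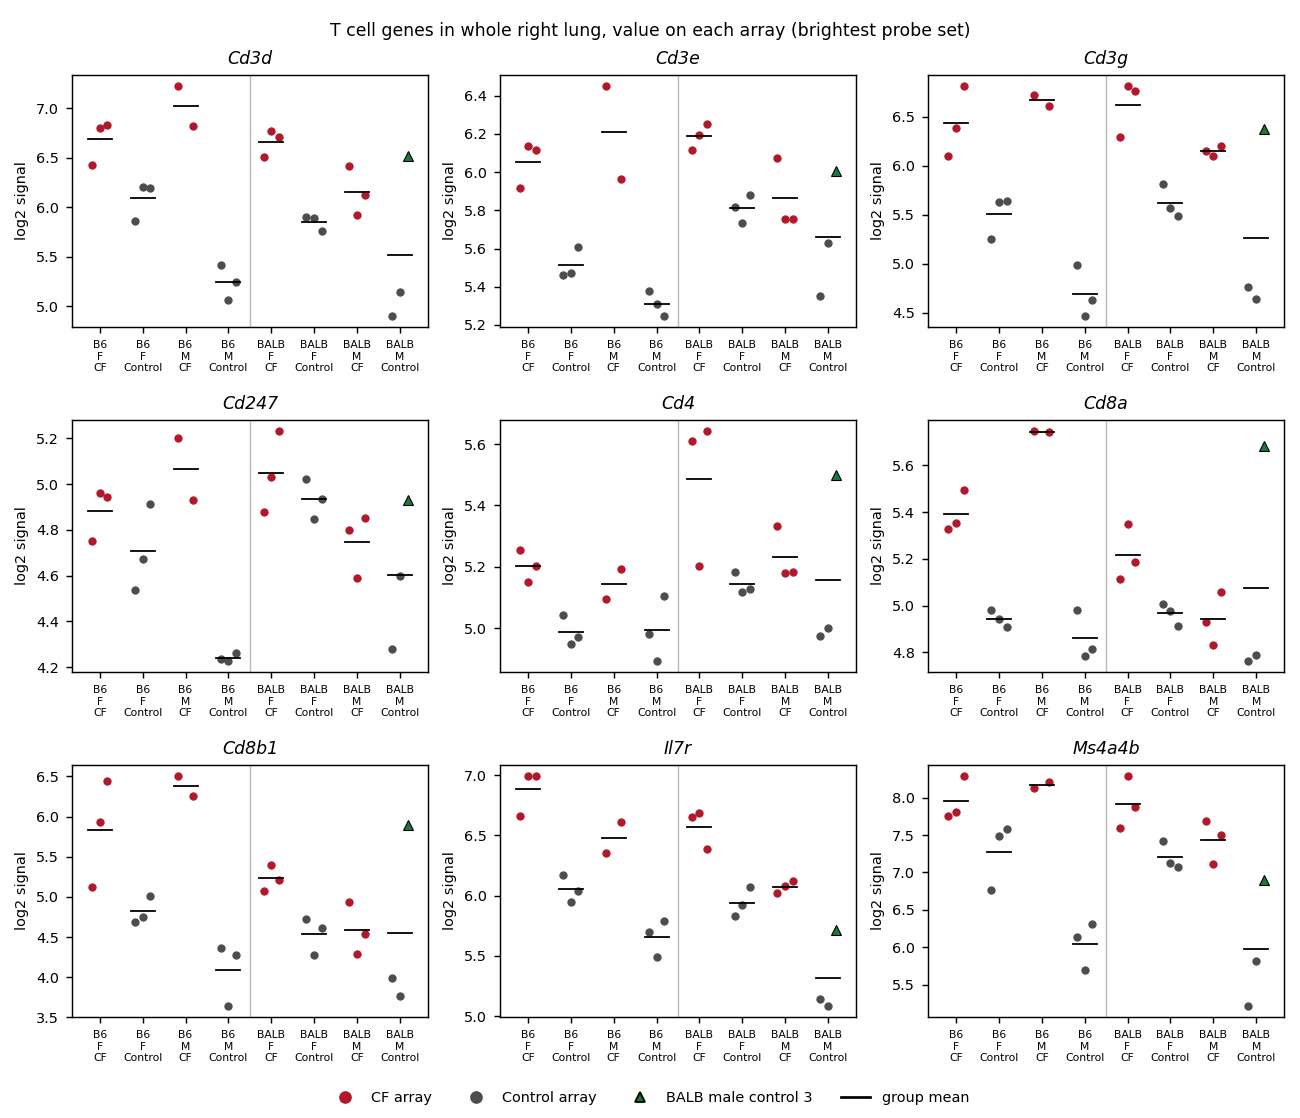
Log2 signal of the 9 T cell genes on each of the 23 arrays, by strain, sex (F, M) and genotype. Points are arrays, horizontal lines are group means, and the triangle is BALB male Control array 3. In B6 the CF points lie above all Control points except for Cd247 and Cd4, while in BALB the triangle lies among or above the CF points for most genes.

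Among the CD3 chains, Cd3g, which encodes CD3 gamma, had signals of 6.09, 6.39 and 6.81 in B6 female CF lungs and 6.72 and 6.61 in B6 male CF lungs. Its signals were 5.25, 5.63 and 5.64 in B6 female Control lungs and 4.98, 4.47 and 4.63 in B6 male Control lungs. No Control array reached the lowest CF array, and the difference, averaged over the sexes, was 1.45 (SE 0.22, adjusted p = 0.000517), a 2.73-fold higher signal. Cd3d, which encodes CD3 delta, had signals of 6.43, 6.80 and 6.83 in B6 female CF lungs and 7.22 and 6.82 in B6 male CF lungs, against 5.86, 6.21 and 6.20 in female Control lungs and 5.41, 5.06 and 5.25 in male Control lungs. The groups did not overlap, and the difference was 1.19 (SE 0.19, adjusted p = 0.000996). Cd3e, which encodes CD3 epsilon, had signals of 5.92, 6.14 and 6.12 in B6 female CF lungs and 6.45 and 5.96 in B6 male CF lungs, against a lowest of 5.25, a median of 5.42 and a highest of 5.61 in the 6 Control lungs. Its groups did not overlap either, with a difference of 0.72 (SE 0.10, adjusted p = 0.000253).

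Cd247, which encodes the zeta chain that carries most of the activation motifs of the receptor, had signals of 4.75, 4.96 and 4.94 in B6 female CF lungs and 5.20 and 4.93 in B6 male CF lungs. In Control lungs it was 4.54, 4.67 and 4.91 in females and 4.23, 4.23 and 4.26 in males. The female groups overlapped and the male groups did not. The difference over both sexes was 0.50 (SE 0.10, adjusted p = 0.00534), and it was 0.43 with an adjusted p of 0.0591 without B6 male CF array 1.

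The start regions of these 4 genes are shown because they encode the receptor's signalling chains, and because all 4 were higher in B6 CF lungs. Each is the 300 bases from 250 before to 50 after a start site on GRCm38.p6, from RefSeq, 5′ to 3′ on the gene's strand, with motif matches in capitals. Cd3d lies on the plus strand at chr9:44981536-44981835, and Cd3g on the minus strand at chr9:44980382-44980681. Cd3e lies on the minus strand at chr9:45009562-45009861, and Cd247 on the plus strand at chr1:165788431-165788730.
Cd3d: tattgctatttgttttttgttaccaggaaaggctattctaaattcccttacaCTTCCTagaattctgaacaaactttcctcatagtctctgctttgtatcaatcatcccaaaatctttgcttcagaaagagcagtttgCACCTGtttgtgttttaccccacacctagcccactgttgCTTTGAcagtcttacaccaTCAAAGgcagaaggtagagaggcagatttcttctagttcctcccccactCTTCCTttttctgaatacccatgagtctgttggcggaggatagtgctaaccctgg
Cd3e: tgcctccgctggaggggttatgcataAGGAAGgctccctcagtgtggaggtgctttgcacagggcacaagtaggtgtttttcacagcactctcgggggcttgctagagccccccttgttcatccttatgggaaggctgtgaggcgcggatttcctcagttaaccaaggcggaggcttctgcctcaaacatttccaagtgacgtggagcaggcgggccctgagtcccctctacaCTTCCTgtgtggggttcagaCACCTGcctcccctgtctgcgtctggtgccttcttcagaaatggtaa
Cd3g: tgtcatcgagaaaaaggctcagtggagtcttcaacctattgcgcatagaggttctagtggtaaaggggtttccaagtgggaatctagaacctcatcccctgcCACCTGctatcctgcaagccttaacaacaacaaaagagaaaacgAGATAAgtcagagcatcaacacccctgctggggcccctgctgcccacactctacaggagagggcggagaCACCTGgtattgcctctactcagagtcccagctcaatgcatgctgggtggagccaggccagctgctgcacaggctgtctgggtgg
Cd247: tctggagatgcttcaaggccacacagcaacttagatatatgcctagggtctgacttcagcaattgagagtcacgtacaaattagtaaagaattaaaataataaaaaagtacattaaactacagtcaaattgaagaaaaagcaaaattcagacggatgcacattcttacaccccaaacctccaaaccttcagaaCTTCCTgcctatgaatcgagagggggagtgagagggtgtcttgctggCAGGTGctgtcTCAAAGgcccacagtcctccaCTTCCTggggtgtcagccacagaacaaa

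Motifs of 5 families of factors that act in T cells were searched on both strands of such windows, and no 2 matches overlapped in the windows shown. Of the 7 measured genes with a window (none was given for Cd4 and Cd8b1), 4 held the E-box CAGGTG or its complement CACCTG, and these 4 are the windows shown. This E-box was in 20.2% of 32851 windows of the same length. The ETS core AGGAAG or its complement CTTCCT was in 4 of the 7 (Cd3d, Cd3e, Cd247 and Il7r) and in 35.4% of all windows. The TCF/LEF letters CTTTGA or TCAAAG were in 2 of the 7 and in 16.0% of windows, the GATA letters AGATAA or TTATCT in 1 and 11.2%, and the RUNX letters TGTGGT or ACCACA in 1 and 16.8%. The matches describe letters in these windows and are not evidence of binding. The reference genome is that of C57BL/6J, so differences of sequence in BALB were not examined.

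Of the coreceptor genes, both CD8 chains rose in B6 CF lungs. Cd8b1 had signals of 5.13, 5.94 and 6.44 in B6 female CF lungs and 6.50 and 6.25 in B6 male CF lungs. Its signals were 4.69, 4.75 and 5.01 in B6 female Control lungs and 4.36, 3.64 and 4.28 in B6 male Control lungs. The lowest CF array was only just above the highest Control array, while the difference was the largest of the 9 genes, 1.65 (SE 0.28, adjusted p = 0.00161). Cd8a, the CD8 alpha chain, had signals of 5.33, 5.35 and 5.50 in B6 female CF lungs and 5.75 and 5.74 in B6 male CF lungs, against a lowest of 4.78, a median of 4.93 and a highest of 4.98 in the Control lungs. The groups did not overlap, with a difference of 0.67 (SE 0.12, adjusted p = 0.00173).

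Cd4, the coreceptor of helper and regulatory T cells, gave a small difference that did not pass the test. Its signals were 5.25, 5.15 and 5.20 in B6 female CF lungs and 5.09 and 5.19 in B6 male CF lungs, against 5.04, 4.95 and 4.97 in female Control lungs and 4.98, 4.89 and 5.10 in male Control lungs. The female groups did not overlap and the male groups overlapped, at 5.09 and 5.10. The difference was 0.18 (SE 0.09, adjusted p = 0.303). The second Cd4 probe set, 1427779_a_at, gave 0.13 (SE 0.08, adjusted p = 0.48).

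Il7r and Ms4a4b also rose in B6 CF lungs. Il7r, the alpha chain of the interleukin 7 receptor on which naive and memory T cells depend for survival, had signals of 6.66, 6.99 and 6.99 in B6 female CF lungs and 6.36 and 6.61 in B6 male CF lungs, against a lowest of 5.49, a median of 5.87 and a highest of 6.17 in Control lungs. The difference was 0.83 (SE 0.10, adjusted p = 8.8e-05), with no overlap. Ms4a4b, a membrane protein of T cells in the family of CD20, had signals of 7.75, 7.81 and 8.29 in B6 female CF lungs and 8.13 and 8.21 in B6 male CF lungs, against 6.77, 7.48 and 7.58 in female Control lungs and 6.13, 5.69 and 6.30 in male Control lungs. Its difference was 1.40 (SE 0.22, adjusted p = 0.000843), again with no overlap.

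In BALB the second comparison of CF with Control lungs gave fewer calls when all arrays were used. Il7r, Ms4a4b, Cd3g and Cd3d were higher in CF lungs, 4 of 9 genes, beside a background of 2.60% higher and 2.33% lower over all probe sets. The median difference of the 9 genes was 0.36, and CF and Control arrays overlapped for all 9, where 1.05% of all probe sets had every CF array above every Control array. Without BALB male Control array 3, 7 of 9 genes were higher, beside a background of 2.55%, and the median difference was 0.70. That array was above the other 2 male Control arrays for all 9 genes, so leaving it out could only raise these differences. Cd3e, Cd4 and Cd8b1 were the genes added, and Cd8a and Cd247 did not pass. Without this array, CF arrays lay above all Control arrays for 2 genes, Cd3d and Cd3g, beside 1.36% of all probe sets.

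Il7r was the gene with the lowest adjusted p in BALB. Its signals were 6.65, 6.68 and 6.39 in BALB female CF lungs and 6.02, 6.08 and 6.12 in BALB male CF lungs, against 5.83, 5.93 and 6.08 in female Control lungs and 5.15, 5.08 and 5.72 in male Control lungs. Within each sex the CF arrays lay above the Control arrays, and female Control arrays reached the male CF arrays. The difference was 0.69 (SE 0.10, adjusted p = 0.000295), and 0.80 without BALB male Control array 3. Ms4a4b had signals of 7.60, 8.29 and 7.88 in BALB female CF lungs and 7.69, 7.11 and 7.50 in BALB male CF lungs, against 7.42, 7.13 and 7.07 in female Control lungs and 5.21, 5.82 and 6.89 in male Control lungs. Here too CF was above Control within each sex. The difference was 1.08 (SE 0.21, adjusted p = 0.00432), and 1.31 without that array.

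Cd3g had signals of 6.30, 6.81 and 6.76 in BALB female CF lungs and 6.15, 6.10 and 6.20 in BALB male CF lungs. In Control lungs it was 5.81, 5.57 and 5.48 in females and 4.76, 4.64 and 6.37 in males. Male Control array 3 was the only Control array among the CF arrays. The difference of 0.95 (SE 0.21, adjusted p = 0.00981) became 1.22 without it (SE 0.13, adjusted p = 1.32e-05). For Cd3d the BALB CF arrays had a lowest of 5.92, a median of 6.46 and a highest of 6.77, against 4.90, 5.83 and 6.52 in Control lungs. The difference was 0.72 (SE 0.18, adjusted p = 0.0254). It was 0.97 (adjusted p = 3.09e-05) without male Control array 3. Leaving out BALB male CF array 1, male Control array 1, male Control array 2, female CF array 2, female CF array 3 or female Control array 3 instead gave differences of 0.57 to 0.71, with adjusted p-values from 0.0504 to 0.076.

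The other 5 genes did not pass in BALB with all arrays. Cd3e ranged over 5.76, 6.09 and 6.25 (lowest, median, highest) in CF lungs and 5.35, 5.78 and 6.00 in Control lungs, a difference of 0.29 (SE 0.10, adjusted p = 0.087), and 0.38 (adjusted p = 0.0125) without male Control array 3. Cd4 ranged over 5.18, 5.27 and 5.64 in CF lungs and 4.97, 5.12 and 5.50 in Control lungs, a difference of 0.21 (adjusted p = 0.179), and 0.29 (adjusted p = 0.0184) without that array. Leaving out BALB female CF array 2 instead also brought Cd4 past the threshold, with 0.28 (adjusted p = 0.0492). Cd247 ranged over 4.59, 4.86 and 5.23 in CF lungs and 4.28, 4.89 and 5.02 in Control lungs, and gave 0.13 (adjusted p = 0.533), or 0.21 (adjusted p = 0.187) without male Control array 3. The zeta chain thus did not pass in BALB either way.

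For the CD8 chains male Control array 3 was above every CF array. Cd8b1 had signals of 5.07, 5.40 and 5.22 in BALB female CF lungs and 4.94, 4.28 and 4.54 in BALB male CF lungs, against 4.73, 4.28 and 4.62 in female Control lungs and 3.99, 3.76 and 5.90 in male Control lungs. Its difference was 0.36 (SE 0.27, adjusted p = 0.535) with all arrays and 0.70 (SE 0.18, adjusted p = 0.029) without male Control array 3. Cd8a had signals of 5.11, 5.35 and 5.19 in BALB female CF lungs and 4.93, 4.83 and 5.06 in BALB male CF lungs, against 5.01, 4.98 and 4.91 in female Control lungs and 4.76, 4.79 and 5.68 in male Control lungs. The difference was 0.06 (SE 0.11, adjusted p = 0.858) with all arrays and 0.21 (SE 0.06, adjusted p = 0.0509) without that array. Whether thymocyte RNA has a share in these values was not tested.

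**Figure D3:**
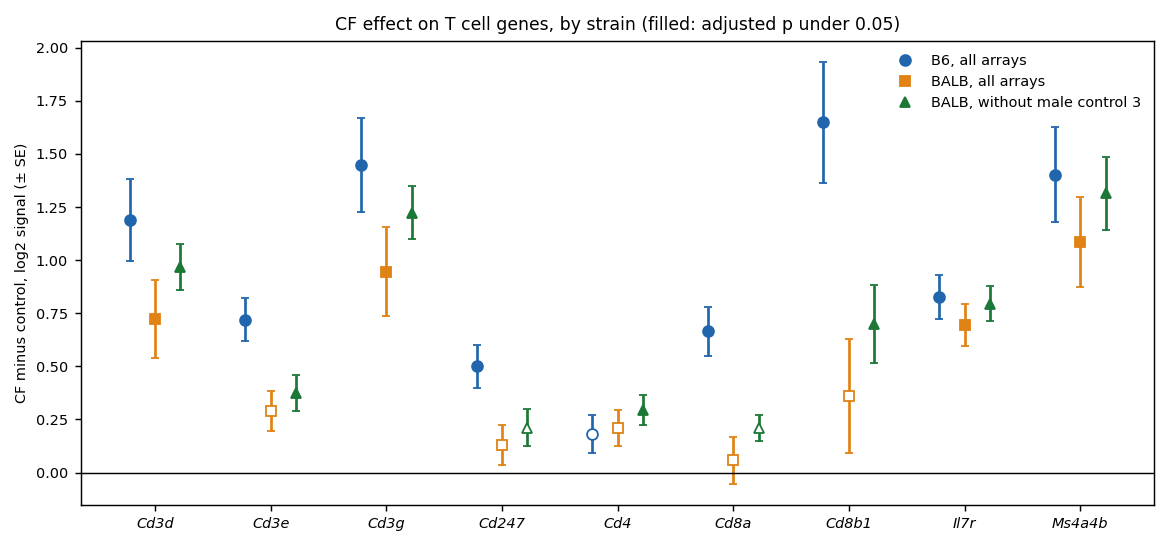
CF minus Control difference of log2 signal (vertical axis, with its standard error) for each T cell gene in B6, in BALB, and in BALB without male Control array 3. Filled symbols passed an adjusted p under 0.05. B6 has 8 filled symbols, BALB 4, and BALB without that array 7, and the BALB values move up for all 9 genes when it is left out.

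The third comparison asked whether the CF difference itself was unlike in the strains, as the BALB effect minus the B6 effect. Cd8a was the 1 gene of 9 that passed, with -0.61 (SE 0.16, adjusted p = 0.0444), beside a background of 1.20% lower and 1.34% higher. Its CF difference was 0.06 in BALB and 0.67 in B6. Leaving out 1 array ended this call for 18 of the 23 arrays, and took it to adjusted p-values of 0.0521 to 0.10, with differences between -0.64 and -0.58. With BALB male Control array 3 left out the difference was -0.46 and the adjusted p was 0.00672, and Cd8a was again the 1 gene past the threshold, beside a background of 1.29% lower. Cd8b1 had the same sign, -1.29 (SE 0.39, adjusted p = 0.0857), and -0.95 (adjusted p = 0.055) without that array. It passed without B6 female CF array 1 (-1.46, adjusted p = 0.0478) or without BALB male Control array 2 (-1.48, adjusted p = 0.0414). Cd3e gave -0.43 (adjusted p = 0.109), and it passed without B6 male CF array 2 (-0.55, adjusted p = 0.0391) or without BALB male Control array 1 (-0.51, adjusted p = 0.0401). For the other 6 genes the differences ran from -0.50 for Cd3g to 0.03 for Cd4, with adjusted p-values of at least 0.172, which does not show that the strains act alike.

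The 5 Cd8a probe sets differed in what they showed. In B6, 1425335_at rose by 0.67, 1451673_at by 1.59 (SE 0.28, adjusted p = 0.0018) and 1444078_at by 1.23 (SE 0.23, adjusted p = 0.0033). On 1451673_at the B6 CF arrays had signals of 4.53, 5.09 and 5.68 in females and 5.86 and 5.74 in males, against a highest of 4.22 in Control lungs. The groups did not overlap there. On 1444078_at they did, as B6 female CF array 1 was 4.22 and B6 female Control array 3 was 4.45. The remaining 2 probe sets did not pass, with 0.25 (adjusted p = 0.0853) on 1440811_x_at and 0.12 (adjusted p = 0.683) on 1440164_x_at. Signals of 1440811_x_at were low, at 2.85 to 3.54 on all arrays, and its B6 groups were just apart (lowest CF 3.21, highest Control 3.19). None of the 5 passed in BALB with all arrays, and 1451673_at passed without BALB male Control array 3, with 0.57 (adjusted p = 0.0237). The strain difference was -1.39 (adjusted p = 0.058) on 1451673_at and -0.99 (adjusted p = 0.108) on 1444078_at. With BALB male Control array 3 left out these became -1.02 (adjusted p = 0.011) and -0.73 (adjusted p = 0.10).

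**Figure D4:**
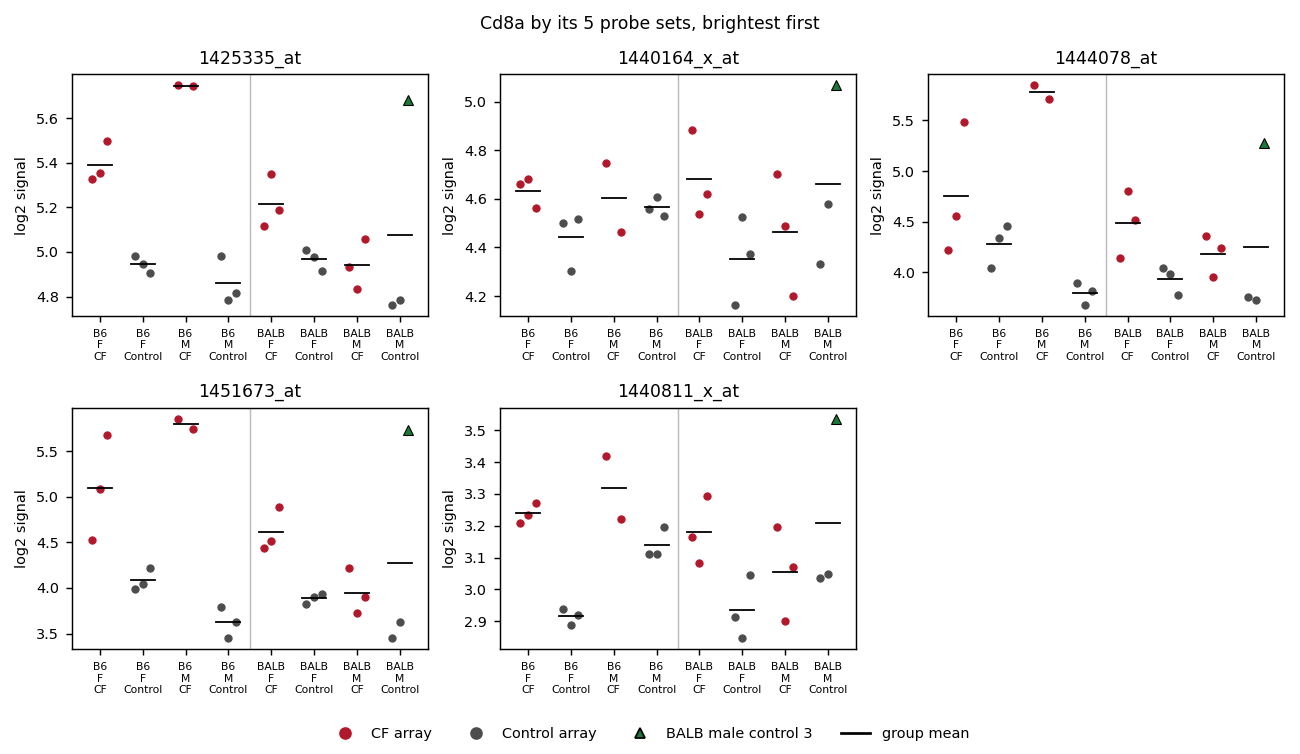
Log2 signal of the 5 Cd8a probe sets on each array, by strain, sex (F, M) and genotype, ordered by mean signal. Points are arrays, horizontal lines are group means, and the triangle is BALB male Control array 3. On 1425335_at, 1451673_at and 1444078_at the B6 male CF arrays and the triangle are high, and on 1444078_at and 1440164_x_at the B6 groups overlap.

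The further probe sets of Cd247, Il7r and Ms4a4b followed the brighter ones in part. For Il7r, 1448576_at rose by 0.57 in B6 (SE 0.12, adjusted p = 0.0069) and by 0.48 in BALB (SE 0.11, adjusted p = 0.0142), or 0.54 without male Control array 3. For Cd247, 1452539_a_at rose by 0.48 in B6 (SE 0.12, adjusted p = 0.0275) and gave 0.33 in BALB (adjusted p = 0.107), or 0.43 (adjusted p = 0.0249) without that array, while 1420716_at and 1426079_at passed in neither strain. The second Ms4a4b probe set, 1425325_at, had signals of 2.81 to 3.57 on all arrays and passed in neither strain. Counted by probe set, 12 of 19 rose in B6 CF lungs and 5 of 19 in BALB CF lungs, beside 2.72% and 2.60% of all probe sets. Without BALB male Control array 3 the BALB count was 10 of 19, beside 2.55%.

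Strain levels were compared within each genotype. Whether the probes match BALB sequence as well as B6 sequence was not examined, for these or any other differences of level between the strains. In CF lungs 3 genes were lower in BALB than in B6, beside a background of 9.52% lower and 8.66% higher. Cd8b1 averaged 4.91 ± 0.42 in BALB CF lungs and 6.05 ± 0.56 in B6 CF lungs (SD, n = 6 and 5), a difference of -1.20 (SE 0.28, adjusted p = 0.00431). Cd8a gave -0.49 (SE 0.12, adjusted p = 0.00421) and Il7r gave -0.36 (SE 0.10, adjusted p = 0.0189). BALB male Control array 3 enters none of these differences, though it adds to the estimate of the spread. Without it Cd3d also passed, at -0.45 (adjusted p = 0.0052). The background without it was 9.65% lower. None of the 9 genes passed as higher in BALB CF lungs. For Cd8a, 1451673_at and 1444078_at were also lower in BALB CF lungs, with differences of -1.17 (adjusted p = 0.0046) and -0.93 (adjusted p = 0.0064).

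In Control lungs 2 genes were higher in BALB than in B6, beside a background of 7.46% higher and 8.12% lower. Cd3e averaged 5.74 ± 0.23 in BALB and 5.41 ± 0.13 in B6 Control lungs (SD, n = 6 each), a difference of 0.32 (SE 0.10, adjusted p = 0.0232). Cd247 averaged 4.77 ± 0.28 in BALB and 4.47 ± 0.28 in B6 Control lungs, a difference of 0.29 (SE 0.09, adjusted p = 0.0384). Neither passed without BALB male Control array 3, at 0.24 (adjusted p = 0.0715) and 0.21 (adjusted p = 0.116). Cd3e also missed the threshold without B6 female Control array 2, B6 male Control array 3 or BALB female Control array 3, at differences of 0.31 (adjusted p-values of 0.0515 to 0.0551). Cd247 missed it on leaving out any 1 of 9 arrays, at 0.21 to 0.30, with adjusted p-values of 0.0598 to 0.116. Il7r was -0.23 (adjusted p = 0.138) with all arrays and -0.33 (adjusted p = 0.00886) without BALB male Control array 3, beside a background of 7.67% lower. For all 9 genes the Control arrays of the strains overlapped, while BALB lay wholly above B6 for 3.33% of all probe sets and wholly below for 4.39%.

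Within each sex, males and females of the same strain were compared with their own Controls. In B6 males 8 of 9 genes rose, all but Cd4, beside a background of 3.61% higher. Cd8b1 rose by 2.28 (SE 0.42, adjusted p = 0.00237), Ms4a4b by 2.13 (adjusted p = 0.00063) and Cd3g by 1.97 (adjusted p = 0.000957). The B6 male CF group has 2 arrays, and without its array 1 the count was 4, where the lone array left is assumed to vary like those of the other groups. In B6 females Il7r was the 1 gene that passed, with 0.83 (SE 0.14, adjusted p = 0.0053), beside a background of 0.406%. The 9 female differences were all above 0, with a median of 0.60, against a median of 0.90 in males. Without BALB male Control array 3, which lies outside these groups and acts only through the shared spread, Cd3g (0.92, adjusted p = 0.00954), Cd8a (0.45, adjusted p = 0.00968) and Cd3e (0.54, adjusted p = 0.0243) passed in B6 females too, beside a background of 0.515%. B6 female counts were 2 without either B6 male CF array, BALB male CF array 1 or BALB male Control array 1. Shares of all probe sets are not given for these fits, nor for B6 males without CF array 1. Those counts cannot be told apart from general changes in calls.

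A sex difference of the B6 CF effect, female minus male, passed for 0 of 9 genes in limma, while 5 of 9 had an unadjusted p under 0.05. The background was 1.07% lower and 0.682% higher. Ms4a4b gave -1.45 (SE 0.45, adjusted p = 0.106) and Cd3d gave -1.18 (SE 0.39, adjusted p = 0.132). On leaving out BALB male Control array 3, Cd3d (adjusted p = 0.00865), Ms4a4b (adjusted p = 0.0287) and Cd3g (-1.05, adjusted p = 0.0323) passed, beside a background of 1.26% lower. Without B6 female Control array 1, 1 gene passed, and the share of all probe sets is not given for that fit. The Control groups contribute to these values: Cd3d averaged 6.09 in B6 female Control lungs and 5.24 in B6 male Control lungs, while it averaged 6.69 in female and 7.02 in male CF lungs of that strain. Female and male Control levels were not tested against each other.

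In BALB females Il7r passed, with 0.63 (adjusted p = 0.0339), beside a background of 0.577%. Without male Control array 3, Il7r, Cd3d and Cd3g passed, beside 0.737% of all probe sets. The count was 0 without BALB female CF array 1 or 3, or without female Control array 1 or 3. In BALB males Ms4a4b (1.45, adjusted p = 0.0117) and Il7r (0.76, adjusted p = 0.00545) rose, beside a background of 1.26%. Without male Control array 3, Cd3d (1.13, adjusted p = 0.000614) and Cd3g (1.45, adjusted p = 0.000313) rose as well, beside a background of 1.32%, and the count was 1 without male CF array 1 or 3, or male Control array 1 or 2. For fits without an array other than male Control array 3, shares of all probe sets are not given. Those counts, in both sexes, cannot be told apart from general changes in calls. The sex difference in BALB passed for 0 of 9 genes in limma, with 0 of 9 at an unadjusted p under 0.05, beside a background of 0.0178% in either direction.

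The members moved together from array to array. Over the 36 pairs of genes the median Pearson r over the 23 arrays was 0.78, and after the 8 group means were removed it was 0.70. These points share arrays and their overall quality. The second median was 0.40 with BALB male Control array 3 left out. Among Cd3d, Cd3e, Cd3g and Cd247 it was 0.81 with that array and 0.70 without it. Between Cd4 and the other members it was 0.46 with that array and -0.12 without it, and between Il7r and the others it was 0.53 and -0.002.

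The genes whose pattern was most like the mean of the members, over all 23 arrays, were Trbv1, Rac2, Jakmip1, Lat, Trav9d-3 and Tbc1d10c. They were ranked by Pearson r among 11624 genes with a mean at or above the median signal. Trbv1, a beta chain variable gene of the T cell receptor, had r = 0.96, and Trav9d-3, an alpha chain variable gene, had r = 0.93. Rac2, a small GTPase of blood cells, had r = 0.94, and Lat, the adaptor that the receptor's kinases phosphorylate, had r = 0.94. After the 8 group means were removed the highest were Trbv1 (0.98), Trav9d-3 (0.97), Satb1 (0.94), Vamp1 (0.94), Tbc1d10c (0.94) and Jakmip1 (0.93). Satb1, a chromatin organiser abundant in thymocytes, fell to 0.77 without BALB male Control array 3, and Trbv1 and Trav9d-3 were then 0.93 and 0.94. These genes were ranked on the arrays that the CF effects come from, so their effects are no independent result. In B6, Trbv1 rose by 1.25 (adjusted p = 0.0137) and Trav9d-3 probe set 1426168_a_at by 1.51 (adjusted p = 0.000381), while Satb1 gave 0.48 (adjusted p = 0.384) and Vamp1 0.07 (adjusted p = 0.766). In BALB, Trav9d-3 rose by 1.13 (adjusted p = 0.00275) and Trbv1 gave 0.74 (adjusted p = 0.129), or 1.13 (adjusted p = 3.77e-05) without male Control array 3.

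Other genes of the pathway were taken from 6 companion lists, which were also chosen with earlier results of these data known. Of the receptor chain list 2 of 17 genes were measured, Trbv13-2 and Tcra, and neither passed in either strain: in B6, Trbv13-2 gave 0.22 (adjusted p = 0.0679) and Tcra 0.03 (adjusted p = 0.876). The other listed chains had no probe set of 1 symbol. Trbv1 and Trav9d-3, the receptor chain genes described above, were not on this list. Of 31 measured genes of proximal receptor signalling, 12 rose and 0 fell in B6, and 9 rose and 0 fell in BALB, with medians of 0.19 and 0.15. The background for this and the next lists is that of all probe sets, 2.72% higher and 1.99% lower in B6 and 2.60% higher and 2.33% lower in BALB. In B6 these included Ptpn22, a phosphatase that restrains receptor signalling (1.17, SE 0.15, adjusted p = 9.16e-05), Lat (0.87), its partner adaptor Lcp2 (0.73) and the adaptor Skap1 (0.63). Ptpn22 ranged from 4.98 to 6.06 in B6 CF lungs and from 4.28 to 5.04 in B6 Control lungs, so that the groups overlapped at their edges. In BALB the named genes were the phosphatases Ptpn6 (0.67, adjusted p = 0.000518) and Ptprc, which encodes CD45 (0.79, adjusted p = 0.00106). Both are made by most white blood cells.

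Of 32 surface, adhesion and costimulation genes, 16 rose in B6 and 13 in BALB, and 0 fell in either, with medians of 0.40 and 0.29. In B6 they included Spn, which encodes the sialoprotein CD43 (1.04), the early activation marker Cd69 (0.95), the integrin chain genes Itgal (0.82) and Itgb7 (0.70). Cd69 ranged from 3.46 to 4.66 in B6 CF lungs and from 2.81 to 3.69 in B6 Control lungs, against 3.00 to 3.40 in BALB CF lungs and 2.77 to 3.45 in BALB Control lungs. Its strain difference of the CF effect was -0.88 (SE 0.17, adjusted p = 0.00806), and that of Ctla4, an inhibitory receptor, was -0.42 (adjusted p = 0.0255). In BALB the named genes were the leukocyte proteins Cd52 (1.01) and Cd53 (0.67). In Control lungs Cd44 and Cd52 were lower in BALB than in B6, with differences of -0.72 and -0.91.

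Of 21 transcription factors of T cells, 7 rose and 0 fell in B6, and 4 rose and 2 fell in BALB. Tbx21, which directs the type 1 helper and cytotoxic programmes, rose by 1.01 in B6 (adjusted p = 0.00107), Bcl11b, needed for T cell identity, by 0.82, and Stat4, which relays interleukin 12, by 0.59. Klf2, which keeps T cells recirculating and is also strongly made by endothelium, fell by 0.87 in BALB CF lungs (adjusted p = 0.00015) and rose by 0.47 in B6 CF lungs (adjusted p = 0.0285). Its strain difference was -1.35 (adjusted p = 0.000204). Its mean was 9.58 ± 0.32 in BALB CF lungs and 10.45 ± 0.21 in BALB Control lungs (SD, n = 6 each). Prdm1 had a strain difference of 0.91 (adjusted p = 0.00576). In Control lungs Runx1 was lower in BALB than in B6, with a difference of -1.51.

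Of 23 cytokine receptor and homing genes, 7 rose and 0 fell in each strain. Cxcr6, a chemokine receptor of tissue-resident T cells, averaged 5.98 ± 0.27 in B6 CF lungs and 4.99 ± 0.22 in B6 Control lungs (SD, n = 5 and 6), with a difference of 0.98 (adjusted p = 0.000253). In BALB it averaged 5.96 ± 0.34 in CF lungs and 4.74 ± 0.36 in Control lungs (SD, n = 6 each), with a difference of 1.22 (adjusted p = 2.23e-05). In B6, Il18rap (0.83), the selectin ligand gene Selplg (0.76) and the type 1 chemokine receptor gene Cxcr3 (0.54) also rose, and in BALB the chemokine receptor gene Ccr6 (0.81). Of 13 effector cytokine genes, 0 passed in B6, where Ifng gave 0.37 (adjusted p = 0.0578) and Fasl 0.28 (adjusted p = 0.0803). In BALB, Tnfsf10 (0.64) and Csf2 (0.37) rose. Leaving out BALB male Control array 3, the BALB counts of rises were 13 of 31 for signalling, 16 of 32 for surface genes, 5 of 21 for transcription factors, 8 of 23 for receptors and 1 of 13 for cytokines. The background without that array was 2.55% higher. Of the genes named from these lists for a call in BALB, in the strain difference or between Control lungs, Csf2 lost its call without that array (0.33, adjusted p = 0.0684).

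**Figure D5:**
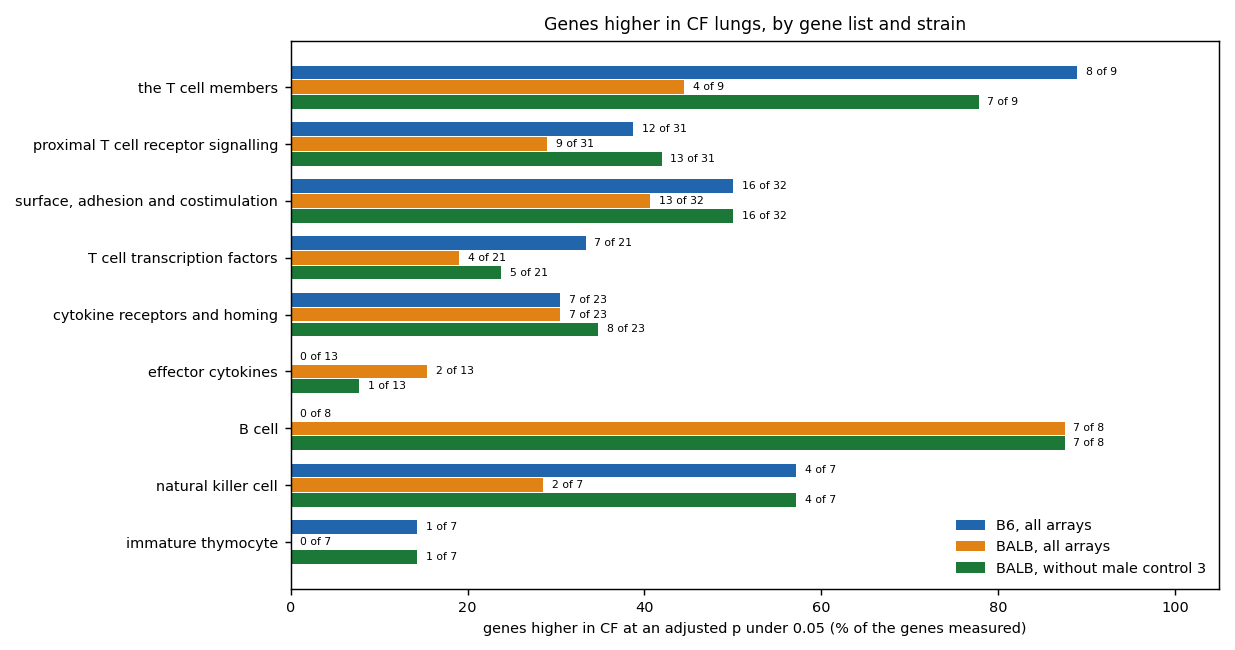
Share of the measured genes of each list that were higher in CF lungs at an adjusted p under 0.05 (horizontal axis, percent), with the counts beside the bars, in B6, in BALB, and in BALB without male Control array 3. The T cell members stand at 8 of 9 in B6, 4 of 9 in BALB and 7 of 9 in BALB without that array, and the B cell markers at 0 of 8 in B6 and 7 of 8 in BALB. Each strain's difference averages females and males.

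Markers of other cells also differed between CF and Control lungs. The background is again 2.72% higher in B6 and 2.60% in BALB. Of 7 natural killer cell markers, 4 rose in B6 and 2 in BALB, or 4 in BALB without male Control array 3, where the background was 2.55%. Their summed level, as a mean of values each less its gene mean, ran from 0.13 to 0.81 in B6 CF lungs and from -0.25 to 0.23 in B6 Control lungs. It ran from -0.32 to 0.36 in BALB CF lungs and from -0.87 to 0.14 in BALB Control lungs. Of 8 B cell markers, 0 rose in B6 and 7 in BALB when averaged over the sexes. Within sex, 4 rose in B6 males (median difference 0.84), 0 in B6 females (median -0.30), 2 in BALB males and 0 in BALB females. The backgrounds were 3.61%, 0.406%, 1.26% and 0.577% higher, in that order. The B6 sex difference, female minus male, passed as lower for 1 of the 8, beside 1.07% of all probe sets. B cell levels were -0.43 to 0.46 in B6 CF lungs against -0.79 to 0.50 in B6 Control lungs. In BALB they were 0.05 to 0.74 in CF lungs against -0.88 to 0.17 in Control lungs. The strain difference passed for 0 of the 8 B cell markers. All 5 neutrophil markers rose in each strain. Of 7 macrophage and monocyte markers, 3 rose in B6 and 1 in BALB, with levels of 0.37 to 1.10 in B6 CF lungs against 0.13 to 0.46 in B6 Control lungs, and -0.36 to 0.07 in BALB CF lungs against -0.79 to -0.36 in BALB Control lungs. The B cell, neutrophil and macrophage counts in BALB over both sexes were the same without male Control array 3. The part that these cells have in the T cell gene values was not tested.

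Markers of other tissues were high on some arrays. The level of 6 intestinal markers ran from -0.76 to 0.73 in BALB CF lungs and from -0.05 to 1.85 in BALB Control lungs, and 5 of the 6 fell in BALB CF lungs. It was 1.85 and 1.78 on female Control arrays 1 and 3 of BALB, 1.85 and 1.47 on male Control arrays 1 and 2, and 1.43 on B6 female Control array 1. That of 5 squamous epithelium markers ran from -0.90 to 4.52 in BALB CF lungs and from -0.92 to -0.73 in BALB Control lungs, and 2 of the 5 rose, or 0 of 5 without BALB male Control array 3. The 3 BALB female CF arrays had 2.10, 2.92 and 4.52, so that no array of this group could be set apart. In B6 Control lungs it reached 4.52, on male array 3, while all B6 CF arrays were between -0.96 and -0.79. B6 female Control array 1 also had high Krt4 (8.55) and Krt13 (7.08), though not Krt5 (5.23). The level of 6 skeletal muscle markers was also high, at 1.21, 1.57 and 3.33 on the BALB female CF arrays and 2.76 on B6 male Control array 3. On B6 female Control array 1 the muscle gene Acta1 was high (8.35) and Myh4 was not (3.89). The muscle level ran from -0.40 to -0.30 on the BALB male CF arrays and from -0.58 to -0.02 in BALB Control lungs. In BALB females 4 of the 6 rose, and 5 of the 6 were higher in BALB than in B6 CF lungs. With B6 female Control array 1, B6 male Control array 3 and BALB male Control array 3 all left out, and the BALB arrays with intestinal, squamous or muscle markers kept, 8 of 9 T cell genes were higher in B6 CF lungs and 7 of 9 in BALB CF lungs, beside 2.13% and 2.99% of all probe sets. The part of these markers in the BALB values was not tested.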

How the data were processed

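Total RNA of whole right lung was labelled with biotin and hybridised to 23 single-channel arrays, per the labels. The values are those of the series' deposited value table, taken here as log2 signals because they were continuous and ran from 1.79 to 13.82; what the authors used to summarise and normalize probes was not given in the sources used here. No 2 columns were identical (0 pairs), and r between arrays was 0.971 to 0.996. Probe sets were named from the platform annotation, and 64 control probe sets were dropped, leaving 45037.

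Means of the 8 groups were fitted together with limma 3.58.1 in R 4.3.3 (lmFit, eBayes, 15 residual and 5.81 prior degrees of freedom). The fit was tested on simulated data. P-values were adjusted by Benjamini-Hochberg over all 45037 probe sets within each of 11 comparisons, with a threshold of 0.05. Each strain's CF effect averages those of females and males, and errors are standard errors of the fit. With 3 arrays against 3, no exact permutation test (two-sided) can give a p below 0.1. The number of arrays limits the precision.

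Members and lists were chosen with earlier results of these data known. Named companion genes are up to 4 of lowest p per list for the CF effect in B6 and up to 2 in each other main comparison, and the 6 most like the members in each measure. Promoter windows came from RefSeq (GRCm38.p6). Alternatives were array weights, a replicate block, another scaling, a filter on dim probe sets, an intensity trend, fits of fewer arrays, means over probe sets and leaving out each array.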

Additional observations from a re-analysis of the deposited data

Results flagged for a closer look

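The CF effect on Cd8a, measured on 1425335_at, differed between the strains by -0.61 (BALB effect minus B6 effect, SE 0.16, adjusted p = 0.0444 in limma), a difference between groups by the interaction test itself. Every one of the 5 B6 CF arrays was above every B6 Control array, while BALB CF and Control arrays overlapped. Leaving out 1 array took the adjusted p to between 0.0521 and 0.10 for 18 of the 23 arrays, and the mean over the probe sets of Cd8a gave -0.65 (adjusted p = 0.109). The value is -0.46 without BALB male Control array 3, the array with the highest Rag1, Rag2, Dntt and Themis signals.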

How the results depend on the processing

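The count of T cell genes higher in B6 CF lungs was 7 or 8 under every setting run, and each gene's B6 difference kept its sign. Other counts were less stable. For the strain difference of the CF effect (1 with all arrays) the mean of all probe sets of a gene gave 0. For BALB minus B6 Control lungs (2) a fit of the arrays concerned gave 1 and the mean of probe sets gave 1. Array weights gave 2 in B6 females, 3 in BALB females, 4 in BALB males and 3 for the B6 sex difference, and the intensity trend gave 2 in B6 females. Leaving out B6 female Control array 1, B6 male Control array 3 and BALB male Control array 3, a setting chosen after seeing the data that keeps the BALB arrays with intestinal, squamous or muscle markers, gave 7 in BALB, 0 for BALB minus B6 Control lungs, 3 in B6 females, 3 in BALB females, 4 in BALB males and 4 for the B6 sex difference. Shares of all probe sets called in either direction were then 5.89% in BALB and 13.8% for BALB minus B6 Control lungs. They were 1.67% in B6 females, 2.12% in BALB females, 2.5% in BALB males and 2.15% for the B6 sex difference. Such shares are not given here for the other settings, whose counts cannot be told apart from general changes in calls. Of single calls, Cd3d in BALB missed the threshold in a fit of the BALB arrays (adjusted p = 0.0834) and with the intensity trend (0.0512), and Cd247 between Control lungs in a fit of those arrays (0.0616), with array weights (0.0503) and over the mean of probe sets (0.12). Array weights brought Cd3e in BALB (0.0324) and Il7r between Control lungs (0.0376) past it. The cause of these moves was not tested.

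Leaving out 1 array at a time gave counts of 7 to 8 in B6, 3 to 7 in BALB, 0 to 2 for the strain difference, 0 to 2 for BALB minus B6 Control lungs, 2 to 4 for BALB minus B6 CF lungs, 1 to 4 in B6 females, 4 to 8 in B6 males, 0 to 3 in BALB females, 1 to 4 in BALB males, and 0 to 3 for the sex difference in B6. Shares over all probe sets also change with the array left out, and are given above only for BALB male Control array 3. None of the gene differences that changed sign passed the threshold. Leaving out arrays, the Cd8a CF effect in BALB ran from -0.0215 to 0.208, the Cd4 strain difference from -0.0205 to 0.111, and the BALB minus B6 Control differences from -0.23 to 0.18 for Cd3d, -0.0317 to 0.198 for Cd8a, -0.25 to 0.28 for Cd8b1 and -0.30 to 0.12 for Ms4a4b. Centring each array gave -0.0125 for the Cd4 strain difference, and array weights gave -0.11 for Cd3d and -0.0293 for Cd8b1 between Control lungs.

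Replicate numbers showed no general pairing of the arrays: deviations of same-numbered arrays had a median r of 0.002, against -0.004 for other-numbered arrays. Same-numbered pairs ran from -0.18 to 0.35, and 17 of 77 were over 0.1. The share of other-numbered pairs over 0.1 was not counted, so pairing of single arrays was not tested. With the replicate block the strain difference gave 2 genes and the B6 sex difference 1, against 1 and 0 without it, and Cd8b1 had a strain difference of -1.37 (adjusted p = 0.0431).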
